A study of Mus musculus with 9 samples.

Results

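The genes described here are those whose symbols begin with Hist1h, the largest cluster of histone genes in the mouse, on chromosome 13 (mm10 coordinates, GENCODE M21 gene starts). All 56 such genes, of 55450 in the annotation, were used, and the member interactions are every listed pair of genomic bins with at least 1 bin within 2 kb of the start of such a gene. This rule found 68 of 36274 pairs in the H3K27ac list of untreated cells, 53 of 28210 pairs in the H3K27ac list after 12 h of IAA, 14 of 49630 pairs in the CTCF list and 8 of 23630 pairs in the RAD21 list. The cells were E14 mouse embryonic stem cells that carry the genotype CTCF AID, an auxin-inducible degron on the architectural protein CTCF, grown in serum-free medium with leukemia inhibitory factor, PD0325901 and CHIR99021. IAA is an auxin, which sets off the degradation of proteins that carry such a tag. Contacts were measured by MNase HiChIP, in which crosslinked chromatin is cut with micrococcal nuclease, nearby DNA ends are joined, and the joined DNA is enriched with an antibody. H3K27ac, an acetyl mark of active promoters and enhancers, was measured in 2 libraries without and 2 with IAA. CTCF was measured in 2 libraries without IAA, and RAD21, part of the cohesin ring, in 3. All groups carried the tagged CTCF. CTCF and RAD21 pairs after IAA, and the amount of CTCF left after IAA, were not analysed here.

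Replication-dependent histone genes are short, lack introns for the most part, and are transcribed mainly in S phase, when new DNA must be packed into nucleosomes. Their transcripts end in a stem loop and carry no poly(A) tail. H2A, H2B, H3 and H4 form the nucleosome core and H1 binds the linker DNA. In the nucleus the clusters gather at histone locus bodies, which contain NPAT and the factors that process the 3' ends of histone transcripts.

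The 56 starts fell into 5 sub-clusters when starts more than 100 kb apart were separated. The first sub-cluster held 19 genes from Hist1h2bl to Hist1h2br over 117.6 kb (chr13:21716143-21833771). The second, 201.8 kb further on, held 5 genes from Hist1h2ah to Hist1h2bj over 7.6 kb (chr13:22035568-22043214). The third began 1487.8 kb beyond the second and held 29 genes from Hist1h4h to Hist1h1a over 232.6 kb (chr13:23531050-23763666). Hist1h2ba and Hist1h2aa, which are testis-specific histone genes, lay 170.5 kb beyond it, and the pseudogene Hist1h2al lay far downstream at chr13:51203065. The third sub-cluster has a gap of 61.4 kb without a histone start. It divides the sub-cluster into a left part of 16 genes from Hist1h4h to Hist1h1e and a right part of 13 genes from Hist1h2ac to Hist1h1a. By class the 56 genes were 6 H1, 15 H2A, 15 H2B, 9 H3 and 11 H4 genes.

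Upstream sequence is shown for 5 genes whose start bins take part in the pairs described below, 1 of each class apart from H3 and both an H4 gene with many pairs and one with few. Each is the 140 bases before the RefSeq start (GRCm38.p6), read 5′ to 3′ on the gene's strand. Capitals mark the CCAAT box, the TATA box letters TATAAA, the octamer ATTTGCAT and the H1 box AAACACA, each searched on both strands, so that a box on the other strand appears as its reverse complement.
Hist1h1c (chr13:23738667-23738806, plus strand): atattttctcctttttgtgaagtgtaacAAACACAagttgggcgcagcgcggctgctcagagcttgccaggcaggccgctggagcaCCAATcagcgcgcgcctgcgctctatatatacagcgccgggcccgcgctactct
Hist1h2ac (chr13:23683960-23684099, minus strand): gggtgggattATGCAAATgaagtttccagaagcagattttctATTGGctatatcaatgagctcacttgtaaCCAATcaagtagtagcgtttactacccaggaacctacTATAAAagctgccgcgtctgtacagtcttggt
Hist1h2bb (chr13:23746594-23746733, plus strand): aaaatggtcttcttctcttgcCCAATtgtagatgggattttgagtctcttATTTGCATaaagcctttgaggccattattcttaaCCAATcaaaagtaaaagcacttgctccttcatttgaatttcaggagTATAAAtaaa
Hist1h4a (chr13:23761250-23761389, minus strand): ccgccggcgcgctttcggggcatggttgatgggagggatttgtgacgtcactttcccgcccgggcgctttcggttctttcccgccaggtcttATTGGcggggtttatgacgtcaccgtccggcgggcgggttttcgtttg
Hist1h4c (chr13:23698459-23698598, minus strand): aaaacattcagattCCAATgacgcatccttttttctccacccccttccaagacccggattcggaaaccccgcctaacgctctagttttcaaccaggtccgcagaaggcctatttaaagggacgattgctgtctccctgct
RefSeq's table held a 300-base window around the start of 51 of the 56 genes. CCAAT was in 84.3% of these 51 windows and in 37.4% of all 32851 windows in the table. All H1, H2A, H2B and H3 windows held it, and 3 of the 11 H4 windows did. TATAAA was in 60.8% of the histone windows against 13.6% of all windows. The octamer, the site of POU factors such as the protein of Pou2f1, was in 5 of 13 H2A windows and 5 of 14 H2B windows, and in 1.74% of all windows. It was in none of the 6 H1, 7 H3 and 11 H4 windows. AAACACA was in 5 of the 6 H1 windows and in 7.18% of all windows. H2A and H2B genes often start back to back, so that their windows overlap. A letter match is a description of the sequence and not a binding site.

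H3K27ac pairs between histone bins stayed within their own sub-clusters in both conditions. In untreated cells 56 of the 68 pairs had a histone bin at both ends, and after IAA 46 of the 53 did. Every one of these joined bins of the same sub-cluster, and 0 pairs joined different sub-clusters in either list. This rests on the limit of 100 kb, since with a limit of 50 kb 1 untreated and 7 IAA pairs joined different sub-clusters. The lists do hold longer pairs, up to 1960 kb without treatment and 1962 kb with IAA, although pairs of 1 Mb or more make up only 0.0496% and 0.0674% of them. The third sub-cluster had 52 untreated and 41 IAA pairs, the first had 10 in each list, and the second had 6 and 2. The 2 outlying sub-clusters, with Hist1h2ba, Hist1h2aa and Hist1h2al, had 0 pairs in all 4 lists. The histone pairs made up 0.187% of the untreated list and 0.188% of the IAA list, so their number fell in the same proportion as the list itself. The 12 untreated and 7 IAA pairs with a bin away from the histone starts held fewer contacts, with medians of 8 and 11 against 15 for pairs with 2 histone bins in either list. They were also longer in the untreated list, with a median span of 109 kb against 13 kb, while after IAA the medians were 18 and 17 kb. Each list is a pool of its replicates, so no spread between replicates can be given for any value here, and intervals cover counting error only.

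Of the 56 genes, 43 lay within 2 kb of a bin with an untreated H3K27ac pair and 47 within 2 kb of one with an IAA pair. All 9 H3 genes were among the 43. The same holds for 5 of 6 H1, 10 of 15 H2A, 10 of 15 H2B and 9 of 11 H4 genes. The 9 genes without an H3K27ac pair in either list were Hist1h2bq, Hist1h2ao, Hist1h4m, Hist1h4n, Hist1h2ap and Hist1h2br at the right end of the first sub-cluster, and the 3 outlying genes. Hist1h1t, in the right part of the third sub-cluster, is testis-specific too. Its start bin was in neither list, but 3 untreated and 2 IAA pairs had a bin within 2 kb of its start, which also lay within 2 kb of Hist1h4c. Histone genes are near copies of each other, and reads from such copies can be lost or misplaced. Of all 31-base windows in the bin of Hist1h2bq, Hist1h2ao and Hist1h4m (chr13:21810001-21812000), 98.4% occur elsewhere in the genome, and in the bin of Hist1h4n, Hist1h2ap and Hist1h2br (chr13:21832001-21834000) 98.9% do. The absence of pairs at these 6 genes coincides with sequence that short reads place poorly, and the part of that in the result was not tested. In the 51 histone bins that do appear in an H3K27ac list the median repeated share was 13.5%, against 3.4% in the 965 other listed bins of chromosome 13. The highest of the 51 was the bin of Hist1h3f, a gene of the left part, at 62.8%.

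Pairs were spread unevenly over the start bins. Of the 33 listed 2 kb bins that hold a histone start, 30 had an untreated pair, and 7 of these had a single one. The bin of Hist1h1c (chr13:23738001-23740000), which encodes the linker histone H1.2, had 10 pairs without treatment and 11 after IAA, more than 95.9% and 97.6% of all anchor bins. Its coverage, the authors' count of reads in the bin, was 6244 and 6394, the highest of the histone start bins in both lists. The bin of Hist1h4a at the far end of the right part (chr13:23760001-23762000) had 10 untreated pairs and 6 after IAA at coverages of 3810 and 4011. The bin of Hist1h4h at the left edge of the third sub-cluster (chr13:23530001-23532000) went from 8 pairs to 5, and that of Hist1h3e from 6 to 3. The bin of Hist1h2bb, an H2B gene, had 5 in both lists, and that of Hist1h4f went from 3 to 5. Hist1h2ab, an H2A gene of the right part, was the bin with most untreated pairs and none after IAA, with 4 and 0. Single pairs are few enough that none of these differences was tested. By class, the median untreated coverage of the start bins was 3706 for H1, 2294 for H4, 1962 for H3, 1410 for H2A and 1292 for H2B genes. The H1 median rests on the start bins of 3 of 6 genes, which ranged from 2161 to 6244. The bin at 2161 also holds the start of Hist1h3a. Many H2A and H2B genes share a bin, so their values are not separate measurements.

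**Figure D1:**
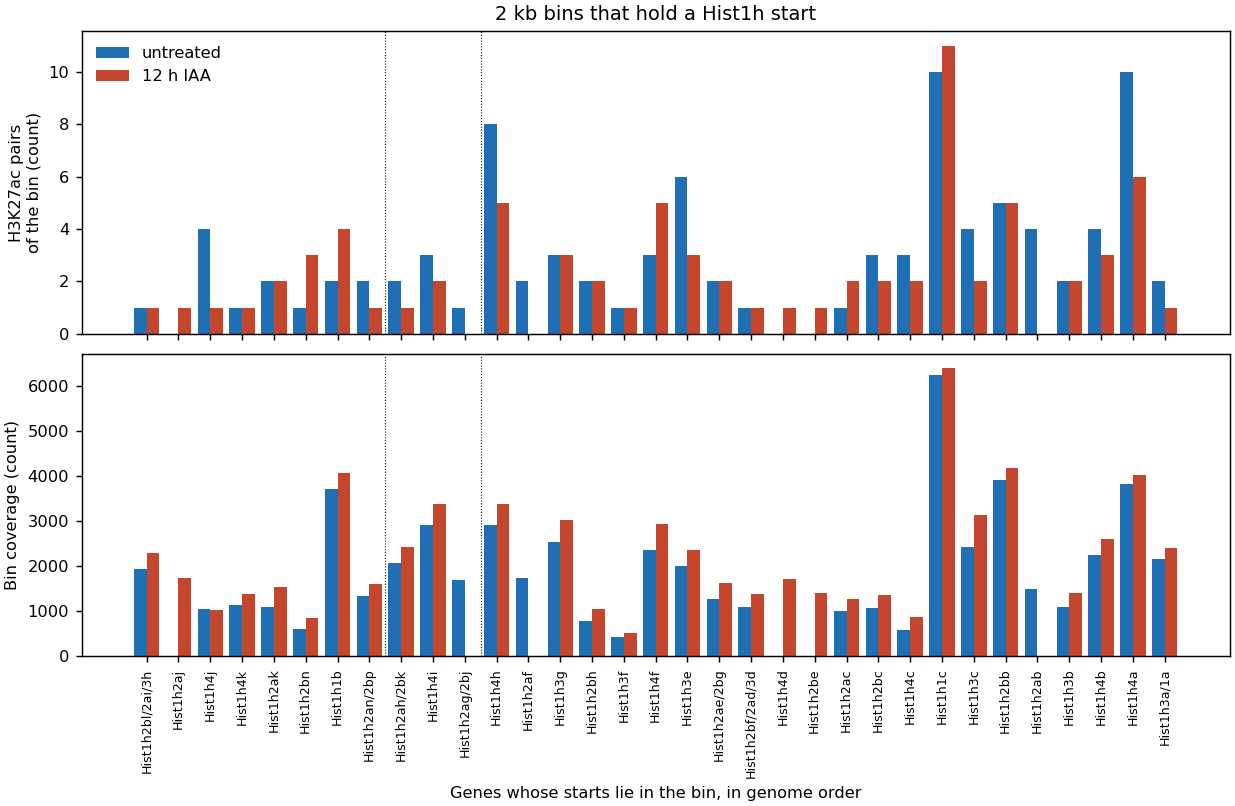
Upper panel, number of H3K27ac pairs (count) of each listed 2 kb bin that holds a Hist1h start, in genome order. Lower panel, coverage of the same bins (count). Blue bars are untreated cells and red bars cells after 12 h of IAA, 1 pooled list each, and dotted lines part the sub-clusters. A missing bar means that the bin is not in that list, and not a coverage of 0. The Hist1h1c bin has the highest coverage bars and 10 and 11 pairs, and the Hist1h4a bin also has 10 untreated pairs.

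The H3K27ac coverage of nearly all histone bins was higher in the IAA list, as it was for most anchor bins. Over the 40 histone bins in both lists the log2 ratio of IAA to untreated coverage had a median of 0.31 (range -0.06 to 0.69) and was above 0 in 39. Over all 16828 anchor bins in both lists the median was 0.20, with 15071 above 0. These ratios are not scaled for depth. The lowest histone value was at Hist1h4j in the first sub-cluster, where coverage went from 1053 to 1010. At Hist1h1c it was nearly level, at 0.03. The model contacts of the 2 H3K27ac lists were 12551236 and 14629323, which is a log2 difference between untreated and IAA lists of -0.22.

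Of the 33 pairs in both lists, the 3 with most untreated contacts lay in the right part of the third sub-cluster and started at Hist1h1c. The bin of Hist1h1c and that of Hist1h2bb, 8 kb apart, had 49 contacts without treatment and 35 after IAA, where the authors' model predicted 10 and 10.7. Hist1h1c and Hist1h3c, 6 kb apart, had 38 and 42 contacts against predictions of 11.3 and 13.3. Hist1h1c and Hist1h4a, 22 kb apart, had 34 and 24 contacts against a prediction of 3.36 in each list, which is 10.1 and 7.14 times the prediction. Elsewhere, Hist1h2ah and Hist1h4i in the second sub-cluster had 30 and 27 contacts, and Hist1h1b and Hist1h2an in the first had 25 and 26. Hist1h2bb and Hist1h4a in the right part also had 25 untreated contacts, and 23 after IAA.

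The right part also held longer pairs with Hist1h1c. Hist1h4c and Hist1h1c, 40 kb apart, had 19 untreated and 20 IAA contacts against predictions of 1.62 and 1.69, which is 11.7 and 11.9 times the prediction. Only Hist1h4j with Hist1h4k in the first sub-cluster, both H4 genes 16 kb apart, lay further above its prediction in both lists among the 33 shared pairs, with 21 contacts in each and 12.3 and 12.4 times the prediction. Hist1h2bc and Hist1h1c, 54 kb apart, had 10 and 18. A further 4 untreated pairs that reach from this end across to Hist1h4a or Hist1h4b over 58 to 76 kb were not listed after IAA. They joined Hist1h4c with Hist1h4a (10 contacts, 62 kb), the bin beside Hist1h4c with Hist1h4a (8 contacts, 64 kb), Hist1h4c with Hist1h4b (8 contacts, 58 kb) and Hist1h2bc with Hist1h4a (8 contacts, 76 kb). Not being listed again is usual at such counts, since 14.7% of the whole untreated list with 6 to 9 contacts and 30.9% with 10 to 14 were.

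**Figure D2:**
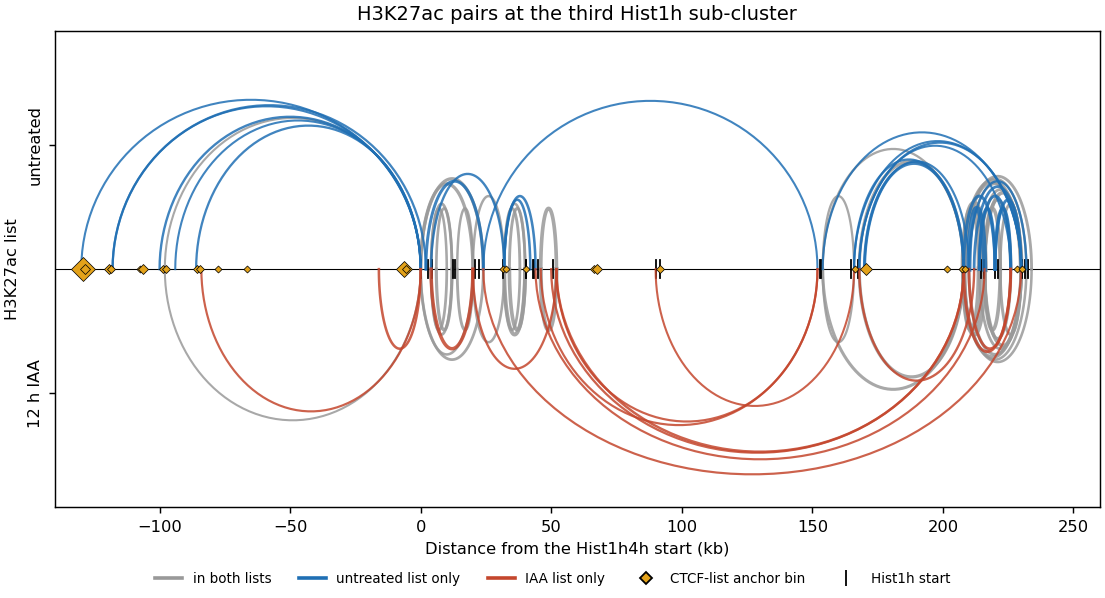
H3K27ac pairs with a histone bin at the third sub-cluster, drawn as arcs between bin centres against distance from the Hist1h4h start (kb), untreated pairs above and IAA pairs below the line. Grey arcs are in both lists, blue arcs only in the untreated and red arcs only in the IAA list. Line width grows with contacts and arc height with span. Black ticks are Hist1h starts and diamonds CTCF-list anchor bins, larger with more pairs, and 1 IAA pair of 1062 kb is outside the window. Short grey arcs fill both parts, blue arcs run left from Hist1h4h, and 7 red arcs against 1 blue arc cross the 61.4 kb gap.

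Of the 68 untreated pairs, 33 were listed again at the same bins after IAA, which is 48.5% (95% Wilson interval 37.1 to 60.2). Over the whole untreated list the share was 42.9%, and 41.4% at the contact counts of the histone pairs. The histone share is thus within counting error of the background. Pairs with a histone bin at both ends were listed again in 32 of 56 cases, 57.1% (44.1 to 69.2) against 45.7% at the same contact counts, and pairs to another bin in 1 of 12, 8.33% (1.49 to 35.4) against 21.5%. When each end could move by 1 bin, 70.6% (58.9 to 80.1) of the 68 were found again, beside 65.7% of the whole list. In the other direction, 62.3% (48.8 to 74.1) of the 53 IAA pairs were in the untreated list, beside 55.1% of the whole IAA list. With 1 bin of tolerance 67.9% (54.5 to 78.9) of the 53 were, beside 75.9% of the whole IAA list. The shares followed the contact counts. Of the 13 untreated pairs with under 10 contacts 1 was listed again, and of the 7 with 25 or more, 6 were.

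Within the third sub-cluster the left part had 15 untreated pairs and 13 after IAA, with 11 in both, so that 73.3% (48 to 89.1) were listed again where the same contacts gave 42.3% in the whole list. The right part had 29 and 17 pairs with 14 in both, or 48.3% (31.4 to 65.6) where 48.6% of the whole list was. The intervals of the parts overlap. With 1 bin of tolerance at each end 13 of the 15 in the left part (86.7%, 62.1 to 96.3) and 23 of the 29 in the right part (79.3%, 61.6 to 90.2) were found again, where the whole list gave 68.8% and 70.9% at the same contacts, and both intervals include that share. The 5 untreated-only pairs with most contacts were all in the right part. They were a neighbour of the Hist1h1c bin (chr13:23740001-23742000) with Hist1h2bb at 38 contacts, Hist1h2ab with Hist1h4b at 20, a bin next to Hist1h4c with Hist1h1c at 19, and Hist1h2ab with Hist1h1c and with Hist1h3c at 18 each. Among them, the pairs of Hist1h2ab with Hist1h4b and Hist1h1c had no IAA pair within 1 bin either. The 5 IAA-only pairs with most contacts were Hist1h3g with Hist1h4f at 22, Hist1h1c and its neighbour bin with Hist1h4b at 16 and 15, a bin upstream of Hist1h2bl with the bin of Hist1h2bl at 15, and a bin 16 kb before Hist1h4h with Hist1h4h at 13.

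Contacts of the 33 pairs in both lists summed to 602 without treatment and 622 with IAA, a log2 ratio of 0.08 (95% counting interval -0.09 to 0.24) after scaling to all 15551 shared pairs. Divided by bin coverage, the ratio was -0.07. Scaled by the model contacts instead of the shared totals, it was -0.17. That scaling shifts every shared pair by the same amount, since its log2 factor is -0.22 where that of the shared totals is 0.03. The median of the 33 ratios was 0.09 (SD 0.36, 23 higher and 10 lower), and over all shared pairs it was 0.03 (SD 0.43). In the exact two-sided binomial test over all 15551 shared pairs with Benjamini-Hochberg adjustment, 0 of the 33 passed an adjusted p of 0.05 in either direction, where 0.0965% of all shared pairs were called higher and 0.0386% lower. At an unadjusted p under 0.05 there was 1 of 33, beside 4.41% of all shared pairs. The test compares the pooled libraries and not the conditions. Both the test and the ratios cover only pairs called in both lists. The 35 untreated-only and 20 IAA-only pairs are left out, so large losses or gains could be missed.

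That pair joined Hist1h3e (chr13:23562001-23564000) with the bin of Hist1h2ae and Hist1h2bg (chr13:23570001-23572000) in the left part. It had 13 contacts without treatment and 27 with IAA, a log2 ratio of 1.08 (0.13 to 2.04, exact binomial p = 0.0263, adjusted p = 0.978). The next largest positive ratios were 0.88 for Hist1h2bc with Hist1h1c and 0.61 (16 and 24 contacts) for a bin beside Hist1h3e with Hist1h2ae. The most negative were -0.59 for Hist1h4h with Hist1h4f (20 and 13 contacts), -0.47 for Hist1h1c with Hist1h4a and -0.46 for Hist1h1c with Hist1h2bb, and the intervals of all 5 include 0. By place, the summed contacts went from 79 to 81 in the first sub-cluster, from 43 to 42 in the second, from 174 to 200 in the left part of the third (log2 ratio 0.23, -0.06 to 0.52) and from 298 to 291 in its right part (-0.01, -0.24 to 0.23).

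**Figure D3:**
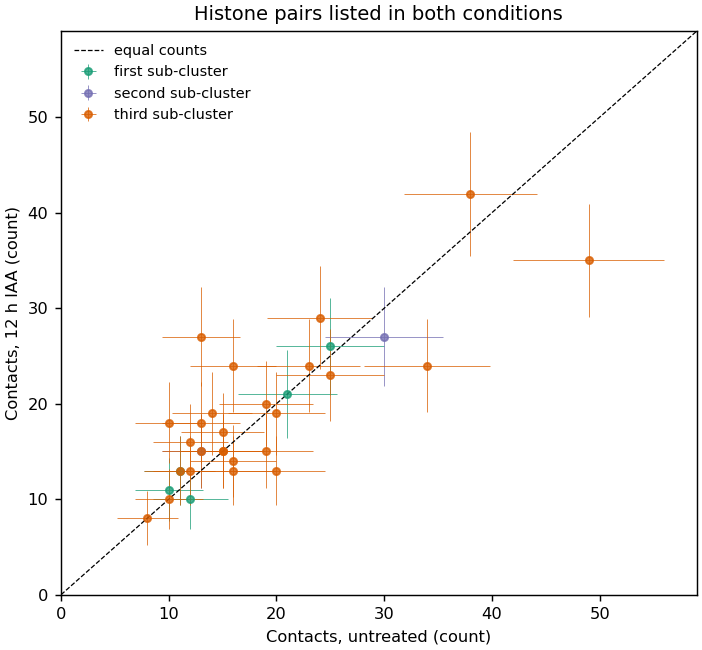
Contacts of the 33 histone pairs in both H3K27ac lists, untreated (x axis, count) against 12 h of IAA (y axis, count). Points are pairs coloured by sub-cluster, bars are the square root of the count as counting error, and the dashed line marks equal counts. Most points lie within their counting error of the line, and the pair with 49 and 35 contacts is furthest right.

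The pairs across the 61.4 kb gap of the third sub-cluster were nearly all IAA pairs. Without treatment 1 pair crossed it, between a bin beside Hist1h1d (chr13:23554001-23556000) and Hist1h2ac (8 contacts, 128 kb). RefSeq places the Hist1h1d start 1769 bases from the GENCODE start, in this bin. After IAA 7 did, with 8 to 12 contacts and spans of 76 to 206 kb, 66 contacts in all. The strongest joined a bin beside Hist1h4d (chr13:23582001-23584000) with Hist1h1c at 12 contacts, where the model predicted 1.33, and the Hist1h4d bin itself reached Hist1h1c with 10. Hist1h4d encodes H4. The other 5 joined the Hist1h4d neighbour bin with Hist1h2ac (9 contacts), a bin beside Hist1h3d with Hist1h2ac (9), the bin of Hist1h2bf, Hist1h2ad and Hist1h3d with Hist1h2bb (9), the bin beside Hist1h1d with Hist1h4a (9), and Hist1h2be with a bin beside Hist1h1t and Hist1h4c (8). Of these 7 pairs 0% (0 to 35.4) were in the untreated list, where 28.5% of the whole IAA list was at the same contacts. Within 1 bin the share was also 0% (0 to 35.4), where the whole list gave 51.7%. With only 1 untreated pair across the gap, few matches were possible. These shares thus largely restate the counts of 1 and 7 and are no separate evidence. The 1 untreated pair was not listed after IAA, where 14.7% of the whole untreated list was at the same contacts. Counts are low and no test of this difference between the lists was made. The IAA list had more model contacts than the untreated one and higher coverage at the histone bins, as given above, and their part in the result was not tested. With a q-value of 0.01 or less 0 untreated and 4 IAA pairs remained, and with 10 or more contacts 0 and 2. In the CTCF list itself 1 pair crossed the gap (11 contacts) and in the RAD21 list 0.

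On the other side, Hist1h4h reached left into the region of Abt1. The untreated list had 7 such pairs with 63 contacts, all from the bin of Hist1h4h or the bin of Hist1h2af next to it, to bins between chr13:23400001 and 23446000, over 86 to 130 kb. They held 8 to 11 contacts each. Of these partner bins 1 held the start of C230035I16Rik and another that of Gm46404, both noncoding RNA genes. After IAA 3 pairs with 30 contacts remained on that side. Of these, 1 was the same pair as before, at 98 kb with 8 contacts in each list, another at 84 kb with 9 contacts had an untreated pair within 1 bin, and the last spanned only 16 kb with 13 contacts. The 7 were listed again in 14.3% (2.57 to 51.3), where 21.7% of the whole list was at the same contacts, so this loss is within the background. With a q-value of 0.01 or less, and likewise with 10 contacts or more, the counts were 3 and 1.

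The second sub-cluster had 6 untreated pairs, of which the 2 that stayed within it were listed again and the other 4 were not. The share of 33.3% (9.68 to 70) was close to the 31.5% of the whole list at the same contacts. The 4 reached bins 66 kb and 176 kb to the left, and 2 bins near Abt1 at 1366 and 1376 kb, the same bins that the pairs of Hist1h4h and Hist1h2af reached. The pair of the Hist1h2ah and Hist1h2bk bin (chr13:22034001-22036000) with chr13:23400001-23402000 held 10 contacts where 1.03 were predicted, and its neighbour pair at chr13:23412001-23414000 held 7. They are 2 of only 18 untreated pairs of 1 Mb or more in the whole list. After IAA the second sub-cluster had 0 pairs to any bin outside it. The IAA list had 1 long histone pair, between Hist1h1c and the start of BC005537 at 1062 kb, with 7 contacts where 1.06 were predicted.

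In the first sub-cluster both lists held 10 pairs with 5 in common. That is 50% (23.7 to 76.3) of each, where 41.8% of the untreated list and 49.5% of the IAA list were shared at the same contacts, so the overlap was near the background. Hist1h4j, an H4 gene, had 4 untreated pairs and 1 after IAA. The 3 that were not listed again ran left, to the bin of Hist1h2bl (9 contacts), the bin before it (12) and chr13:21710001-21712000 (11). Hist1h1b, which encodes the linker histone H1.5, had 2 pairs in its start bin without treatment and 4 after IAA, and the bin next to it had 4 and 3. One of the new ones reached the bin of Hist1h2aj at 60 kb with 10 contacts, where the untreated pairs of this sub-cluster spanned at most 28 kb.

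**Figure D4:**
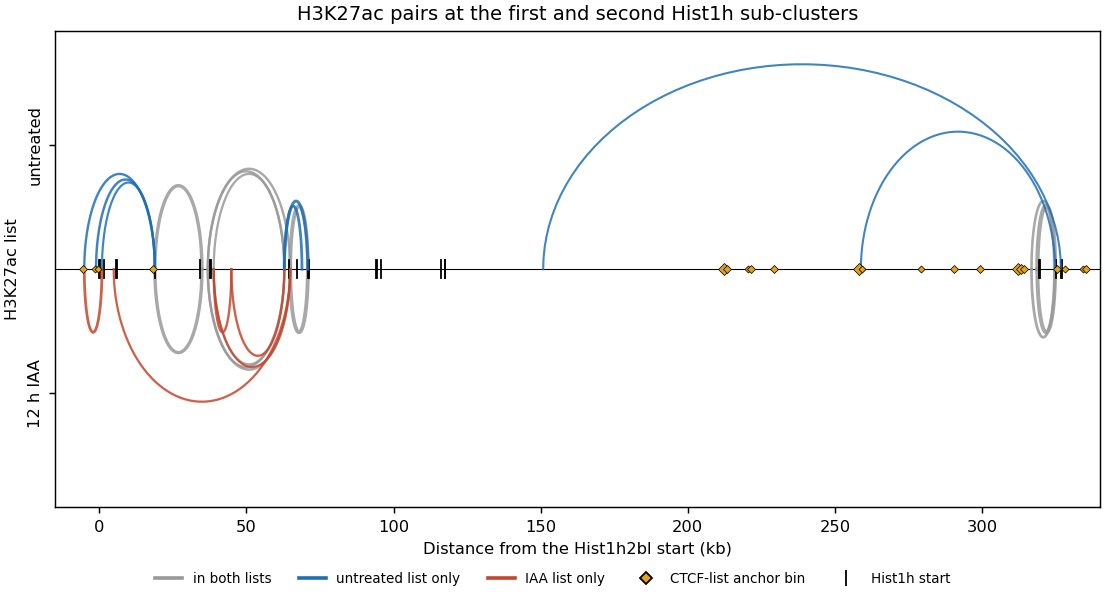
H3K27ac pairs with a histone bin at the first and second sub-clusters, drawn as arcs between bin centres against distance from the Hist1h2bl start (kb), untreated above and IAA below the line, with colours, ticks and diamonds as for the third sub-cluster. The 2 untreated pairs of more than 1 Mb are outside the window. The blue arcs at the left end at Hist1h4j, the grey arcs are in both lists, and the 6 starts at the right end of the first sub-cluster carry no arc.

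CTCF anchors lay between the ends of histone pairs about as often as for other pairs, with a higher share in the pairs of 1 condition only than in those of both. An anchor bin of the untreated CTCF list lay strictly between the bins of 34 of 68 untreated pairs (50%, whole list 49%) and 24 of 53 IAA pairs (45.3%, whole list 48.3%). It did so in 10 of the 33 pairs in both lists (30.3%, whole list 43.1%), in 24 of the 35 untreated-only pairs (68.6%, whole list 53.4%) and in 14 of the 20 IAA-only pairs (70%, whole list 54.7%). The pairs in both lists were shorter, with a median of 12 kb against 38 kb and 52 kb in the untreated-only and IAA-only pairs, and the part of span in this difference was not tested. At 2 kb resolution 3 of the 68 untreated pairs were also CTCF pairs and 1 a RAD21 pair, and after IAA 1 and 0 were, where 6.23% and 5.68% of the untreated list and 3.27% and 3.38% of the IAA list were.

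Of the 95 CTCF pairs at or around the sub-clusters of untreated cells, 14 had a histone bin. CTCF binds a directional motif and, together with cohesin, holds the bases of loops, most often between motifs that point at each other. Sites that match a core of that motif (its CC, AG and GGC letters at their spacing of 3 and 2 free bases, on either strand) are shown for 7 of the anchor bins in this region, with the matched letters in capitals and the strand of the match. The match was in 49.7% of all 34038 CTCF anchor bins and in 18% of the same bins moved by 10 kb. Of the 55 CTCF anchor bins from chr13:21710001 to 23944000, 19 held it, 8 on the plus and 11 on the minus strand. Of the 11 bins with 5 or more pairs 6 held it, 3 on each strand. Among these, chr13:22029001-22030000 (plus strand, 3 partners left and 2 right) and chr13:23402001-23403000 (minus strand, 2 left and 3 right) are not printed. The 7 are examples only, and whether strand goes with the side of the partners was not tested.
chr13:21714908-21714929, plus strand, before Hist1h2bl: gtggCCACAAGATGGCagaaaa
chr13:21734275-21734296, minus strand, beside Hist1h4j: atggCCACTAGAGGGCactctt
chr13:21928740-21928761, plus strand, between the first and second sub-clusters: aaggCCACAAGACGGCgacaga
chr13:23401806-23401827, minus strand, upstream of the third sub-cluster: gacgCCAGAAGAGGGCagtaga
chr13:23424623-23424644, plus strand, beside Abt1: ccagCCGCCAGGGGGCgcggtc
chr13:23598169-23598190, minus strand, in an intron of Hist1h2be: gaaaCCACTAGGTGGCgctgcg
chr13:23697557-23697578, minus strand, beside Hist1h4c: tctgCCACAAGAGGGCggcgtt

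Of the 14 CTCF pairs with a histone bin, 3 had a histone bin at both ends. The other 11, and all 8 RAD21 pairs, had their second bin more than 2 kb from any histone start. Such bins can lie inside the third sub-cluster, as chr13:23598001-23599000 and chr13:23701001-23702000 do. The 2 kb H3K27ac bin that covers the latter (chr13:23700001-23702000) counts as a histone bin, so this split depends on bin size. The strongest CTCF pair joined the bin before Hist1h2bl with the bin beside Hist1h4j, 20 kb apart, at 24 contacts where 5.05 were predicted. The sites printed above for these bins are on the plus strand to the left and on the minus strand to the right. It was followed by chr13:23701001-23702000 with the bin next to the Hist1h1c start (chr13:23739001-23740000) at 15 contacts, where 2.41 were predicted, and by 5 pairs at 11. The pair of the same bin with the bin that holds the Hist1h1c start had 9 contacts, where 2.33 were predicted. Among the RAD21 pairs the strongest joined the bin beside Abt1 (chr13:23424001-23425000) with the bin at Hist1h4h at 15 contacts, where 2 were predicted, 106 kb apart. Next came the Hist1h4h bins with chr13:23598001-23599000 and with chr13:23524001-23525000 and the pair of chr13:23701001-23702000 with the bin at Hist1h4a, at 10 contacts each. The last was the only pair in both lists, with 11 contacts in the CTCF list, over 60 kb. So 1 of 14 CTCF pairs was a RAD21 pair, 7.14% (1.27 to 31.5) where 34.4% of the whole list was and 17.6% at the same contacts. Of the 8 RAD21 pairs 1 was a CTCF pair, 12.5% (2.24 to 47.1) where 72.2% of the whole list was and 63.6% at the same contacts.

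Counting all pairs that enclose, enter or flank a sub-cluster within 100 kb, there were 95 CTCF and 36 RAD21 pairs, 21 of them in both lists. The third sub-cluster had most, with 43 and 25. Its left edge was marked by chr13:23524001-23525000, 6.0 kb from Hist1h4h, which had 14 CTCF pairs, 12 of them to the left. The strongest of these joined it with chr13:23432001-23433000 (103 CTCF and 48 RAD21 contacts, 92 kb) and with the bin beside Abt1 (101 CTCF and 94 RAD21 contacts, 100 kb). Within the left part, chr13:23598001-23599000, in an intron of the annotated Hist1h2be gene, had 6 CTCF pairs, 5 of them to the left. Its pair with the bin beside Abt1 held 42 CTCF and 39 RAD21 contacts over 174 kb, between a plus-strand and a minus-strand site. No such match was found in the bins chr13:23524001-23525000, chr13:23432001-23433000 and chr13:23701001-23702000. On the other side of the gap, chr13:23701001-23702000, 2.5 kb from Hist1h4c, had 8 CTCF pairs, all to the right. The strongest of these held 34 contacts over 31 kb. The pairs of these bins on either side of the 61.4 kb gap thus ran mostly away from it.

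Bins around the first and second sub-clusters formed CTCF pairs of more than 1 Mb with the region left of the third. The CTCF list held 19 pairs between bins around the first and second sub-clusters and bins around the third, with 6 to 34 contacts and spans of 1256 to 1691 kb. Of these, 15 ended at chr13:23401001-23402000, 21.9 kb from Abt1. That bin had a coverage of 10101 and 27 pairs, 19 to the left and 8 to the right, more than 99.9% of CTCF anchor bins. The strongest of the 19 joined it to chr13:22051001-22052000, 7.8 kb from Hist1h2bj, at 34 contacts where 1.22 were predicted. Only 2 of the 19 had a histone bin, both in the second sub-cluster (8 and 9 contacts). The RAD21 list held 3 pairs of this kind with 7 contacts each, the untreated H3K27ac list the 2 named above and the IAA list 0. Pairs of 1 Mb or more are 0.975% of the CTCF list, so such spans are uncommon there too. Between the first and second sub-clusters, chr13:21974001-21975000 and chr13:22028001-22029000 held 83 CTCF and 57 RAD21 contacts, and chr13:21928001-21929000 with the latter 46 and 27. The bins chr13:21974001-21975000, chr13:22028001-22029000 and chr13:22051001-22052000 held no match to the core either.

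**Figure D5:**
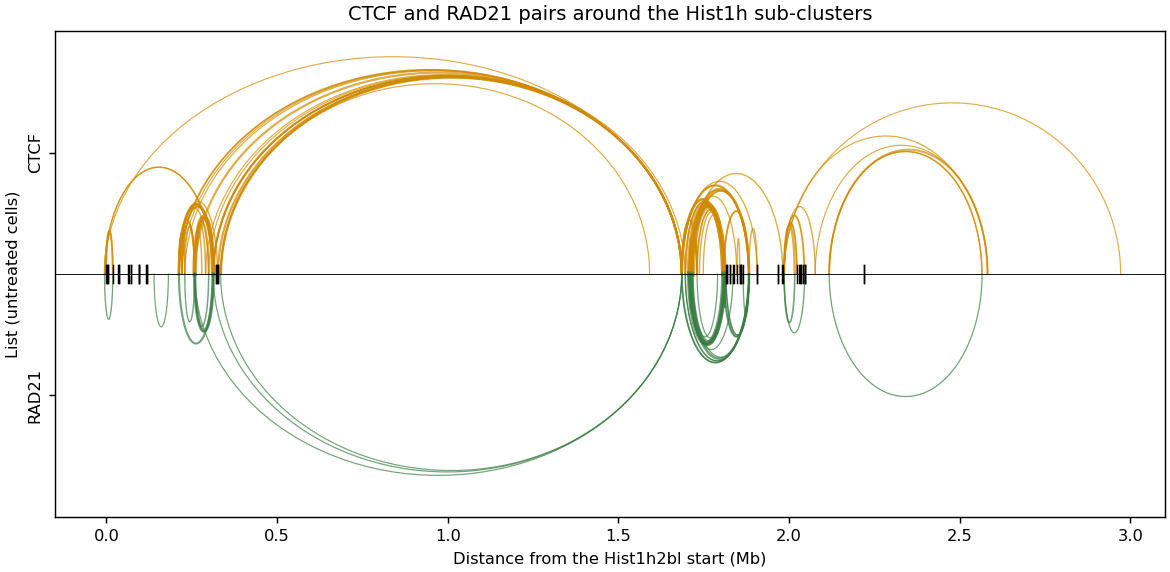
CTCF pairs (above the line) and RAD21 pairs (below) of untreated cells that enclose, enter or flank the 3 larger Hist1h sub-clusters, as arcs between bin centres against distance from the Hist1h2bl start (Mb). Line width grows with contacts, arc height with span, and black ticks are Hist1h starts. A bundle of CTCF arcs joins the second sub-cluster's surroundings with the region just left of the third, and 3 thin RAD21 arcs follow it.

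Genes that supply or control histone transcripts were compared as a list of 19, among them Npat, Slbp (the stem-loop binding protein) and Lsm10. Of these, 15 had an untreated H3K27ac pair at the start, with 63 pairs in all, and 14 had one after IAA, with 55. Their pairs were listed again in 44.4% (32.8 to 56.7), beside 42.9% of the whole list, and 0 shared pairs passed the adjusted test, where 0.0965% of all were called higher and 0.0386% lower. Npat, which encodes the scaffold of histone locus bodies, had 1 pair in each list, at different bins. Slbp had 5 and 6 pairs, and its shared contacts went from 227 to 152 (log2 ratio -0.55), the counts of single pairs not passing the test. Log2 ratios of the genes in this list ranged from -0.56 for Pou2f1 (75 and 50 contacts) to 0.26 for E2f1 (34 and 40). No counting intervals were made for these genes, so falls and rises are not weighed against each other. The 14 histone genes of the other clusters (Hist2h, Hist3h and Hist4h) had 20 untreated and 14 IAA pairs, with 40% (21.9 to 61.3) listed again beside the same 42.9%. As a check of the cell type, all 8 stem cell genes such as Pou5f1, Nanog and Esrrb had untreated H3K27ac pairs (238 pairs), and of 8 genes of other lineages 1 did.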

How the data were processed

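The authors deposited 1 list of called bin pairs for each of 4 groups, pooled over their replicates. Per the file headers each row holds a contact count (raw), the coverage count and peak flag of both bins, a predicted contact count, a p-value and a q-value, and the column layout is that of FitHiChIP. The deposited q-values end just under 0.05 in every list. The build mm10 and the tools Trim Galore, BWA, MACS2 and deepTools are named in the submitters' processing notes, without versions. Bins are 2 kb for H3K27ac and 1 kb for CTCF and RAD21. Model contacts were 12551236 (H3K27ac untreated), 14629323 (H3K27ac IAA), 2839756 (CTCF) and 1517698 (RAD21), and the median listed pair had 13 to 14 contacts.

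From these, pairs were matched by identical bins, shared H3K27ac contacts were compared by the exact two-sided binomial test over all 15551 shared pairs with Benjamini-Hochberg adjustment, and shares carry 95% Wilson intervals. Ratios are log2 of the deposited contact counts, IAA over untreated, scaled by the shared totals. Intervals cover counting error only, because each list pools its replicates. The counts also do not show whether any contacts are PCR copies of the same molecule. The test was checked on simulated data. Members, lists and tests were chosen with earlier results of these data known. Named were the start bins with most pairs and fewest, the strongest pairs, those with the largest rise and fall, and the strongest pairs found in 1 list only. Start bins with 1 pair were too many to name and are counted. Promoters came from RefSeq (GRCm38.p6), gene starts from GENCODE M21. Alternatives were the distance to a start, the q-value limit, a contact minimum, 1 bin of tolerance, the scaling and the gaps that part sub-clusters. Others were protein-coding genes only, division by bin coverage, the size of the flanks and an adjusted p under 0.01. Python 3.11.15, pandas 2.3.3, NumPy 2.4.6, SciPy 1.17.1 and matplotlib 3.10.9 were used.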

Additional observations from a re-analysis of the deposited data

How the results depend on the processing

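Of 86 combinations of a result with an alternative, 62 kept the value and 24 moved. A change of sign was not counted apart. A count was kept if it stayed within 1.5 times, and a share or ratio if it stayed within counting error. With only bins that hold a start, the CTCF list had 8 and the RAD21 list 4 histone pairs. With a q-value of 0.01 or less there were 44 untreated H3K27ac, 34 IAA, 8 CTCF and 5 RAD21 pairs. With 10 contacts or more the CTCF list had 9 and the RAD21 list 4 histone pairs, and 22 RAD21 pairs surrounded the sub-clusters. With 1 bin of tolerance the share listed again after IAA was 70.6%. Scaled by model contacts the log2 ratio of summed contacts was -0.17, and divided by bin coverage it was -0.07. The reported value was 0.08, so its sign changed under both. With a gap of 50 kb as the limit, which splits the third sub-cluster, 1 untreated and 7 IAA pairs joined different sub-clusters. Chosen after seeing the data, the pairs across that gap were also counted with bins that hold a start, 0 untreated and 2 after IAA. Under that setting the right part of the third sub-cluster had 19 untreated pairs instead of 29. Pairs from the third sub-cluster to bins upstream of it numbered 3 untreated and 1 after IAA, instead of 7 and 3, at a q-value of 0.01 or less and at 10 contacts or more. The q-value and contact settings and the narrower distance leave fewer pairs, and the wider distance of 5 kb leaves more. The gap setting makes other groups and the tolerance loosens the match. The scaling by model contacts shifts all shared pairs alike. No paired analysis was possible because each list pools its replicates, and for the same reason leaving out each replicate was not run. Depth limits single pairs, whose counts were mostly under 25, and a pair that is not listed may still hold contacts.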
